A study of Mus musculus with 4 samples.

Results

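Tumour-infiltrating Pmel-I CD8 T cells transduced with Klf4 were compared with Pmel-I CD8 T cells that had received the vector alone, across every gene listed at a mean of 5 TPM (a level divided by transcript length and scaled to the same total in each library) or more over the 2 libraries. This gave 8103 genes of the 45777 symbols in the tables, and they held 99.1% of all TPM in the vector library and 98.2% in the Klf4 library. Pmel-I cells have a transgenic T cell receptor that recognises gp100, a melanocyte protein. MigRI is a retroviral vector that carries GFP, and the control library, called MigRI here, came from cells transduced with the vector without Klf4. The other library came from cells transduced with Klf4. In both groups the cells were injected on day 7 into Rag2-deficient mice, which have no T or B cells of their own, bearing a tumour started from 300000 MC38-gp100 cells, a colon carcinoma line made to express gp100. GFP-positive infiltrating CD8 T cells, 10000 to 20000 per sample, were isolated on day 15. These are 2 of the 4 libraries of the series, and the other pair, PD1-positive CD8 T cells from a control (WT) group and a group labelled Klf4 cKO, is used here only for 2 checks of level. The labels give no age, no number of animals and no statement on pooling. With 1 library per group there is no replicate check, no spread and no p-value, so every direction below describes 1 library against the other.

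Klf4 is a zinc finger transcription factor of the Kruppel-like family, which binds GC-rich and CACCC sequences and can activate or repress transcription. In T cells, members of the family are known for holding resting cells out of the cell cycle and for regulating trafficking receptors. Tumour-infiltrating CD8 T cells recognise antigen through the T cell receptor and its CD3 signalling chains, kill through perforin and granzymes, and under lasting stimulation express inhibitory receptors such as PD1, a state known as exhaustion. Their glycolysis, sterol synthesis and amino acid supply are known to depend on receptor signals and on the nutrients and oxygen of the tumour.

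The Klf4 library was higher over most genes as deposited. The median difference of log2(TPM + 1), Klf4 minus MigRI, was 0.95 over the 8103 genes, which is 1.93-fold. Called here means a difference of at least 1 log2 (2-fold). As deposited, 3942 genes (48.6% of those compared) were called higher with Klf4 and 871 (10.7%) lower, so 81.9% of the calls were higher. Minus the median difference, 1833 genes (22.6%) were called higher and 2145 (26.5%) lower, and 46.1% of the calls were higher. Of these, 993 of the higher genes were below 5 TPM with MigRI and 265 of the lower ones below 5 TPM with Klf4, so they passed the filter through the other library alone. This second quantity is called the relative log2 difference below, and its quartiles were -1.07 and 0.90. A further scale sets each gene against the mean of Trac, Trbc1 and Trbc2, the constant parts of the T cell receptor, which were 4.10-fold lower with Klf4 as deposited. On that scale 7850 of the 8103 genes lay above 0, so a gene below 0 there was lower with Klf4 on all 3 scales. Among the genes just inside the limit of 5 TPM, Adam9 had a mean of 5.0025 TPM, and of those just outside it Slc25a32 had a mean of 4.994 TPM.

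**Figure D1:**
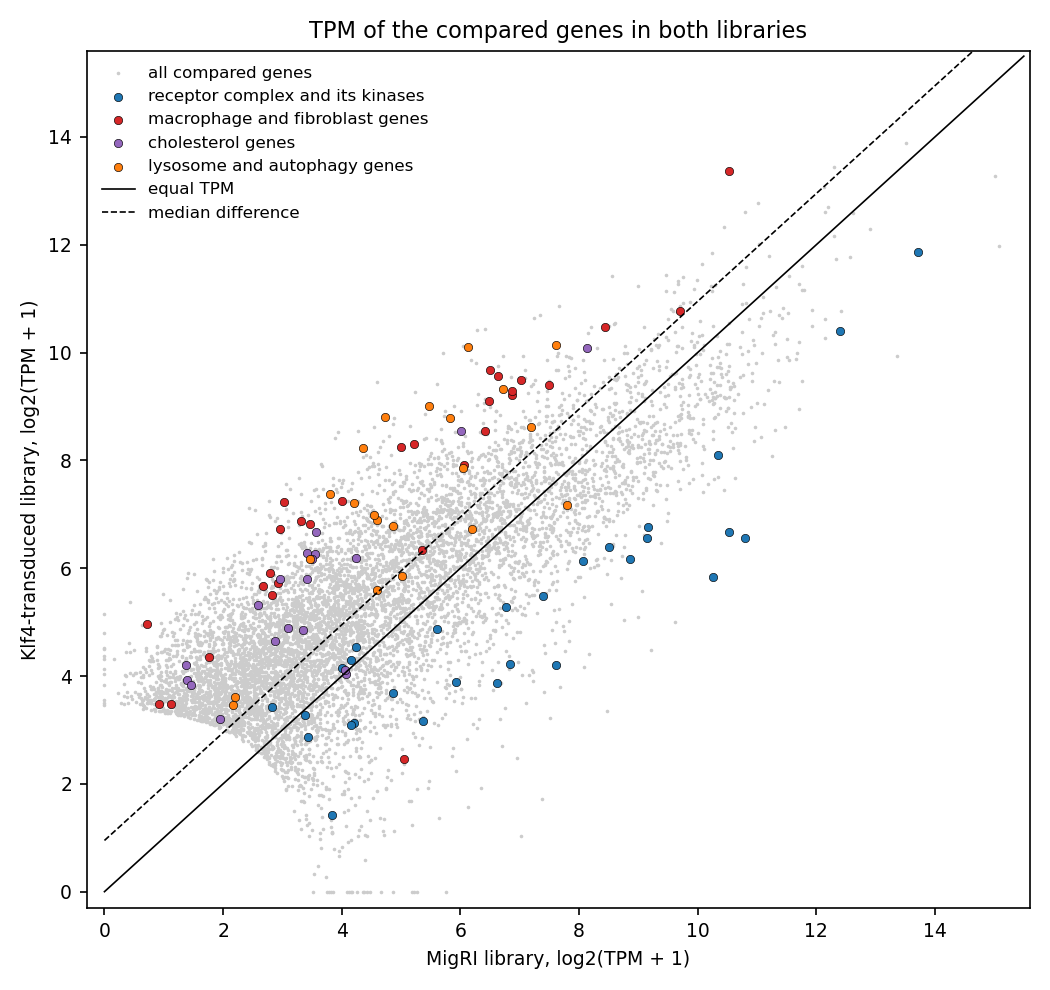
Level of each of the 8103 genes in the MigRI library (x axis) and the Klf4-transduced library (y axis), both in log2(TPM + 1), with 1 point per gene and 4 groups of genes in colour. The solid line marks equal TPM and the dashed line the median difference of 0.95: receptor complex and kinase genes (blue) lie below the dashed line, and macrophage, fibroblast, cholesterol and lysosome genes lie mostly above it. The red point far below both lines is Thy1.

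Klf4 itself, on the minus strand of mm10 chromosome 4 (55527143 to 55532466), was listed at 8.69 TPM with MigRI and 26.05 with Klf4, a 3.00-fold difference. The control (WT) library held 7.52 TPM and the library labelled Klf4 cKO 9.28 TPM, so 3 of the 4 libraries lay close together and the transduced one above them. Its relative log2 difference was 0.53, which is below 2-fold, and against genes of the same transcript length it was 0.05. Whether the value includes reads from the vector's copy is not given in the sources used here.

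The transgenic receptor could be read in both libraries. Trbv14, the beta chain variable segment of the Pmel-I receptor, was listed at 3229 TPM with MigRI and 947 with Klf4, which was 99.1% and 98.6% of all TPM on beta variable segments. It was listed at 0 in the control library and took 0.736% in the library labelled Klf4 cKO. The joining segments Trbj1-6 and Traj40 were likewise the highest of their kind in both Pmel-I libraries, with 85.2% and 92.9% of the beta joining TPM and 55.2% and 60.9% of the alpha joining TPM. The alpha segments Trav7d-5 and Trav7n-5 had the same value, 130.6 TPM with MigRI and 34.3 with Klf4, and reads of these near-identical copies could not be told apart. Both libraries thus held the same receptor segments, at a lower level with Klf4. In bulk RNA, fewer T cells and less RNA per T cell cannot be told apart.

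Genes of the T cell receptor complex were lower with Klf4, and 2 of the CD3 chains were lower by far more than the receptor itself. Of 12 measured genes, 11 were called lower and 0 higher on the relative scale, with a median of -2.91 log2, but of 0.07 against the receptor constant genes. The constant genes Trbc1 and Trbc2 are themselves in this list, so its median on that scale was partly fixed near 0. Cd3d and Cd3g encode the delta and gamma chains that pair with CD3 epsilon and carry receptor signals. Cd3d was listed at 1229.7 TPM with MigRI and 56.04 with Klf4, 21.9-fold lower. Cd3g was listed at 1776 and 93.6 TPM, 18.97-fold lower. Against the receptor constant genes these were differences of -2.40 and -2.20 log2, the lowest values of the list. Cd3e, the epsilon chain of the same gene cluster, was at 108 and 38.01 TPM, 2.83-fold lower and 0.56 log2 above the receptor constant genes. Cd247, the zeta chain with the most signalling motifs, was at 47.9 and 28.3 TPM, which is 1.30 log2 above them. The 4 signalling chains of the same complex thus did not keep their ratio between the libraries. The coreceptor chains Cd8a and Cd8b1 moved with the receptor, at 0.13 and -0.08 log2 from its constant genes.

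Cd3d and Cd3g are neighbours that point away from each other on chromosome 9, and the 130 bases before each RefSeq start are shown because these 2 genes were the lowest of the complex. Coordinates are on GRCm38.p6, the strand is the gene's, and capitals mark CACCC or its complement GGGTG, the letters of the Kruppel-like factor box.
Cd3g, chr9:44980432-44980561, minus strand: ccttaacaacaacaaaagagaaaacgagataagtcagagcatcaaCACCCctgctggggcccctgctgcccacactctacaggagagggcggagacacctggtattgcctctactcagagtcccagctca
Cd3d, chr9:44981656-44981785, plus strand: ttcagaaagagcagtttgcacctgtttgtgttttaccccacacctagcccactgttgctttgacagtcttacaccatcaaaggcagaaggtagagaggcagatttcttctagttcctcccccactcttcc
The Cd3g window held the letters 1 time, 85 bases before the start, and the Cd3d window 0 times. Such a match describes letters and not a bound site.

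Kinases and adaptors that act just below the receptor were lower as well. Of 17 measured, 14 were called lower (82.4%) and 0 higher, against 26.5% and 22.6% of all compared genes. Their relative median was -3.00 log2, and against the receptor constant genes it was -0.02. With Klf4, 1 of the 17 was below 5 TPM, so the filter fixed its direction as deposited. Ptprcap, a partner of the phosphatase CD45, was at 1486 TPM with MigRI and 100.4 with Klf4, and lay -1.84 log2 on the receptor scale. Sh2d1a, the adaptor SAP of SLAM family receptors, was at 194 and 17.4 TPM, -1.37 log2 on that scale. Lat, the scaffold that gathers the receptor's signalling complex, was at 466 and 70.9 TPM, -0.66 log2. These 3 were lower on every scale. At the other end stood 3 genes that other blood cells also express: the kinase Fyn at 16.8 and 18.6 TPM, the adaptor Lcp2 at 17.99 and 22.4 TPM, and the exchange factor Vav1 at 6.12 and 9.799 TPM. Their TPM were higher with Klf4 as deposited, and their relative log2 differences were -0.81, -0.65 and -0.35.

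The receptors of costimulation and of interleukin 2 followed the same course. Of 13 measured, 11 were called lower (84.6%, against 26.5% of all compared genes) and 0 higher. The list median was -2.31 log2 relative and 0.68 on the receptor scale. With Klf4, 1 of the 13 was below 5 TPM, so the filter fixed its direction as deposited. Cd226, an activating receptor that competes with TIGIT for its ligands, had the lowest value, -1.07 log2 on the receptor scale. Tnfrsf4 and Tnfrsf18, the OX40 and GITR receptors, lay at -0.92 and -0.62. Il2rg, the common gamma chain, was at 737 and 287 TPM, 0.68 log2 on that scale. Il2ra, the high-affinity chain, was at 13.4 and 10.1 TPM.

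Inhibitory receptors split. Of 10 measured, 7 were called lower and 1 higher relative to the median, and the list median was -2.89 log2, against 0.09 on the receptor scale. Pdcd1, which encodes PD1, was at 123 TPM with MigRI and 36.2 with Klf4, and kept its ratio to the receptor within 0.29 log2. Cd160 was at 112 and 16.5 TPM and Klrc1, which encodes NKG2A, at 191 and 36.2 TPM, -0.66 and -0.33 log2 on that scale. The 3 highest were Layn, Entpd1 and Havcr2, at 4.52, 3.54 and 3.43 log2 on that scale. Layn and Entpd1 were below 5 TPM with MigRI, and 3 of the 10 genes were below it with Klf4. These passed the filter through the other library alone, which fixed their direction as deposited. Havcr2, which encodes TIM-3, was at 6.83 and 19.7 TPM, and myeloid cells are known to express it and Entpd1 too.

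Natural killer type receptors had a list median of -3.64 log2 relative and -0.66 on the receptor scale, with 7 of 9 called lower and 0 higher. With Klf4, 2 of the 9 were below 5 TPM, so the filter fixed their direction as deposited. Klrk1, which encodes the activating receptor NKG2D, was at 286 TPM with MigRI and 20.4 with Klf4. Klre1 was at 59.9 and 3.74 TPM. Both were lower on all 3 scales, at -1.71 and -1.65 log2 from the receptor. The adaptors Tyrobp and Fcer1g, which natural killer and myeloid cells share, were the highest of the list at 2.77 and 2.54 log2 from the receptor.

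**Figure D2:**
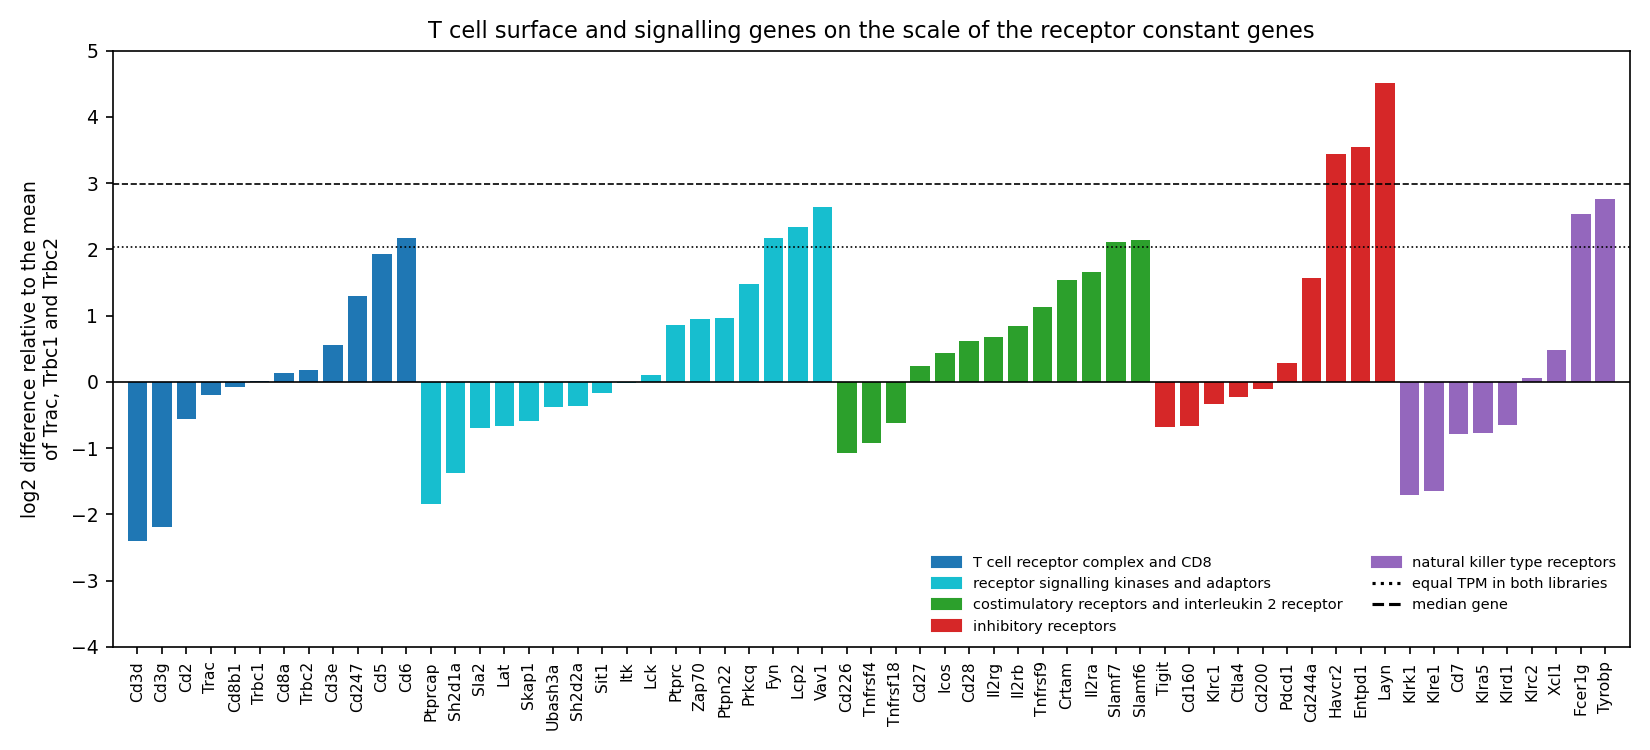
Log2 difference (Klf4-transduced minus MigRI) of each measured gene of 5 T cell lists, set against the mean of Trac, Trbc1 and Trbc2, with 1 bar per gene and 1 library per side. Bars below 0 are lower than the receptor constant genes, the dotted line marks equal TPM in both libraries and the dashed line the median gene. Cd3d and Cd3g reach -2.40 and -2.20, and Layn, below 5 TPM with MigRI, reaches 4.52.

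The cytolytic genes ranged from -6.72 log2 relative for Gzmf, which was listed at 0 with Klf4, or -4.75 without it, to 2.59. Of 17 measured, 11 were called lower and 2 higher, with a median of -2.08 log2 relative and 0.90 on the receptor scale. Below 5 TPM with Klf4 were 3 of the 17, so the filter fixed their direction as deposited. Granzymes of 1 cluster on chromosome 14 were lower with Klf4 on all 3 scales, and Gzmb was not among them. Gzmc was at 668 TPM with MigRI and 87.1 with Klf4, -0.89 log2 on the receptor scale. Gzme was at 20.1 and 0.511 TPM, -1.77 log2. Gzmf was at 53.4 TPM with MigRI, but listed at 0 with Klf4. Gzmb, the granzyme of this cluster that triggers caspases, was at 1003 and 1007 TPM and so lay 2.04 log2 above the receptor. These genes are close copies, and how reads were shared among them is not given in the sources used here. Prf1, the pore-forming protein, was at 31.1 and 69.7 TPM, 0.19 log2 relative. The highest members, Lamp1 at 43.2 and 515 TPM and Ctsc at 34.5 and 147 TPM, encode proteins found in the lysosomes of most cells.

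Cytokine genes diverged in the same way. Of 13 measured, 9 were called lower (69.2%) and 1 higher (7.69%), against 26.5% and 22.6% of all compared genes. The list median was -1.55 log2 relative and 1.44 on the receptor scale. Below 5 TPM were 1 of the 13 with MigRI and 1 with Klf4, so the filter fixed their direction as deposited. Ltb, which encodes lymphotoxin beta, was at 787 and 30.9 TPM, -2.59 log2 on the receptor scale. Csf2, which encodes GM-CSF, was at 201 and 36.8 TPM, -0.39 log2. Ifng, the interferon gamma gene, was at 931 and 1970.4 TPM, higher by 0.13 log2 relative and 3.12 log2 on the receptor scale. Ifng and Ltb, both products of activated lymphocytes, thus lay on opposite sides of the receptor. Tnf, made by T cells and macrophages alike, was the highest at 13.6 and 138 TPM, 2.30 log2 relative. The chemokines Ccl3 and Ccl4 were at -1.502 and -1.55 log2 relative, and at 0 and -0.043 against genes of the same length.

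Lymphocyte transcription factors were partly higher and partly lower. Of 28 listed, 11 passed the level filter, with 6 called lower and 3 higher and a median of -1.29 log2 relative and 1.70 on the receptor scale. The filter fixed the direction of 2 of the 11 as deposited, since they were below 5 TPM with MigRI. Id2 and Id3 encode inhibitors of E proteins that are known for effector and memory cells. Id2 was at 460.4 TPM with MigRI and 291 with Klf4. Id3 was at 41.7 and 342 TPM. Id2 was thus the higher of the pair in MigRI and Id3 with Klf4. Batf, an AP-1 partner of effector differentiation, was at 124 and 18.1 TPM, lower on all 3 scales at -0.68 log2 from the receptor. Nfil3, a basic leucine zipper factor, was the highest at 7.400 and 80.3 TPM, 2.33 log2 relative. Runx1 was at 1.52 and 13.5 TPM and Runx3, the CD8 lineage factor, at 8.89 and 5.67 TPM.

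Among 17 homing and residency genes, 10 were called lower and 2 higher, with a median of -1.63 log2 relative and 1.36 on the receptor scale. Below 5 TPM were 2 with MigRI and 2 with Klf4, so the filter fixed their direction as deposited. Ccr8 and Gpr183, receptors for a chemokine and for oxysterols, were lower on all 3 scales at -1.21 and -0.43 log2 from the receptor. Il7r, a receptor of memory cells, was at 21.5 TPM with MigRI and 3.57 with Klf4. Cd44, an adhesion receptor of many cell types, was at 15.2 and 70.8 TPM, 1.20 log2 relative. Ccr7, the chemokine receptor of lymph node homing, was at 286 and 125 TPM.

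Markers of macrophages and fibroblasts were present in both libraries and higher with Klf4. Of 20 macrophage and monocyte markers 18 were measured, 14 were called higher and 0 lower, and their median was 1.57 log2 relative. Of the 18, 3 were below 5 TPM with MigRI. The summed level was 3553 TPM with MigRI and 18583 with Klf4. Spp1, which encodes osteopontin, was the most abundant, at 1472 and 10552 TPM. Lyz2, the macrophage lysozyme, was at 344 and 1423 TPM. Csf1r, the receptor that defines the lineage, was at 1.18 and 10.1 TPM. Of 19 fibroblast and matrix markers 11 were measured, 10 were called higher and 1, Thy1, lower, with a summed level of 287 and 2146 TPM. Below 5 TPM were 1 of the 11 with MigRI and 1, Thy1, with Klf4. Thy1 is also a T cell surface protein in the mouse. Sparc was at 89.3 and 821 TPM, and Mmp2, a gelatinase of stromal cells, had the largest difference of the list at 7.12 and 148 TPM. None of the macrophage or fibroblast markers was listed at 0 in the Klf4 library except Mmp3.

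Class II presentation and dendritic cell markers summed to 1778 TPM with MigRI and 5061 with Klf4, with 3 of 7 measured genes called higher and 1, Batf3, lower. Cd74, the class II invariant chain, was at 711 and 2251 TPM, while the dendritic cell genes Flt3 and Clec9a were listed at 0 in MigRI and at or below 0.703 TPM with Klf4. The 11 mast cell and basophil markers summed to 2.24 and 116 TPM. The 4 measured were all below 5 TPM with MigRI and passed the filter through the Klf4 library, which fixed their direction. The tryptases Tpsb2 and Tpsab1 were both listed at 0 with MigRI and reached 34.7 and 21.8 TPM with Klf4, but Ms4a2, a chain of the high-affinity IgE receptor, was listed at 0 in both. The 10 neutrophil markers summed to 96.2 and 658 TPM, of which Il1b, also a macrophage cytokine, held 58.8 and 515 TPM.

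Most other lineages were low in both libraries. Epithelial genes, which would mark carcinoma cells, summed to 4.87 and 11.8 TPM over 13 genes, with 0 measured and Krt19, Krt20, Cldn4, Cldn7, Vil1 and Cdx2 listed at 0 in both. Melanocyte genes summed to 0.717 and 1.70 TPM over 6 genes, with Tyr, Tyrp1, Dct and Mlana listed at 0 in both. Of 10 endothelial genes only Egfl7 was measured, at 15.4 and 23.3 TPM. Of the B cell genes, Ms4a1, Pax5 and Jchain were listed at 0 in both libraries, while the immunoglobulin genes Ighm and Igkc were at 66.7 and 51.5 TPM with MigRI, against 46.5 and 25.4 with Klf4. Cd79a, a signalling chain of the B cell receptor, was at 3.52 and 20.6 TPM and was called higher. It was below 5 TPM with MigRI, so the filter fixed its direction as deposited. Cd4 was at or below 0.264 TPM in both. The gamma chain constant gene Tcrg-C4 was at 21.2 TPM with MigRI, but listed at 0 with Klf4. Hemoglobin and platelet genes summed to 1005 and 854 TPM. The part of macrophage and fibroblast RNA in the differences below was not tested.

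**Figure D3:**
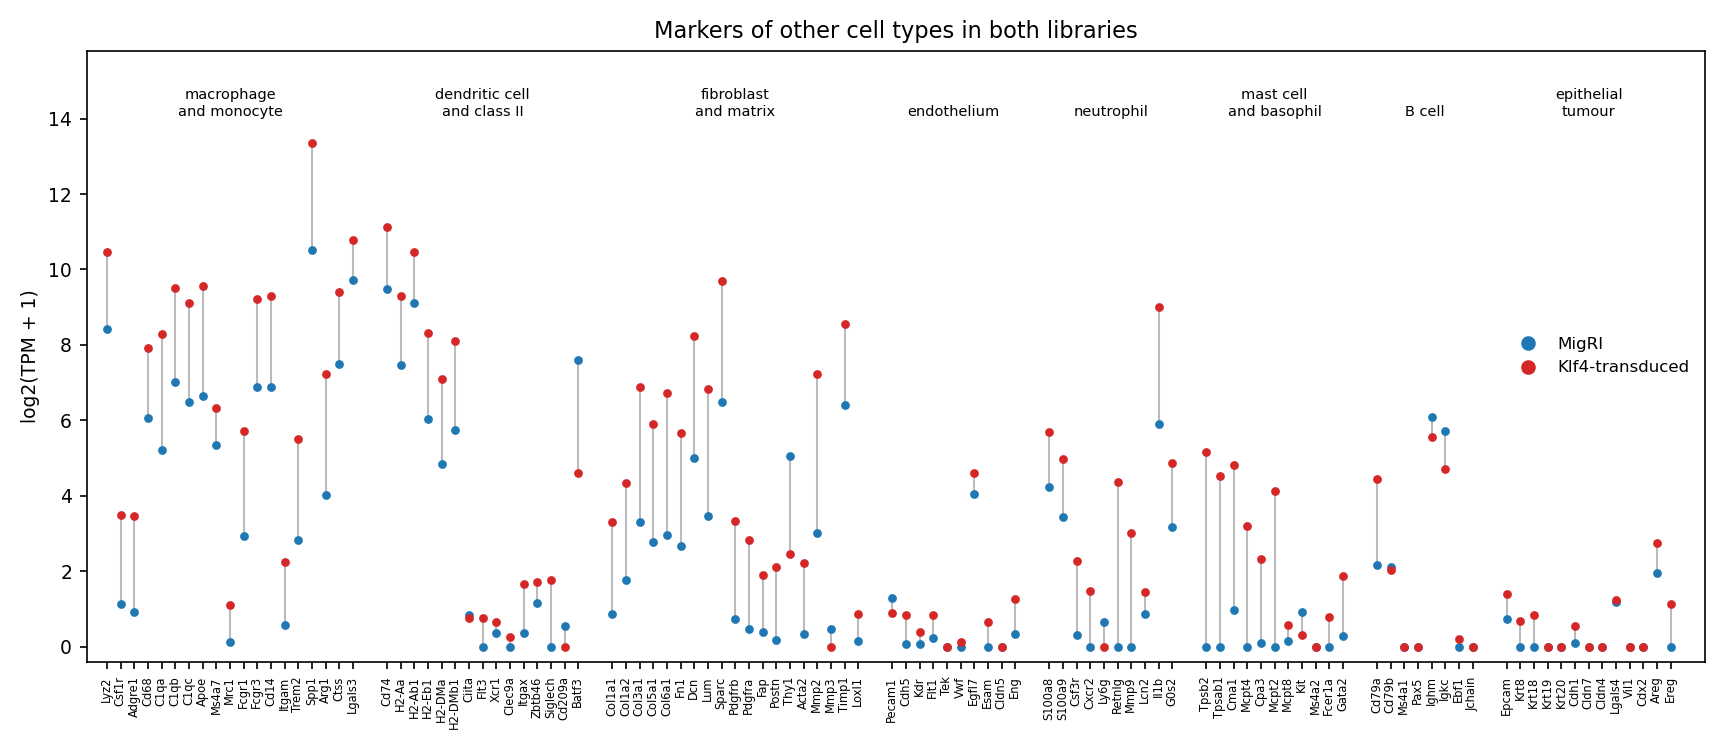
Level of markers of 8 other cell types in the MigRI (blue) and Klf4-transduced (red) library, in log2(TPM + 1), with a grey line joining the 2 values of a gene. Red lies above blue for nearly all macrophage, fibroblast and mast cell markers, with Thy1, Mmp3 and Kit the other way, and most epithelial markers lie near 0 in both, with Areg the highest of them.

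The Kruppel-like family, to which Klf4 belongs, had 9 measured members, with 5 called higher and 1 lower and a median of 1.01 log2 relative. Below 5 TPM with MigRI were 3 of the 9, Klf9 and Klf3 among them, so the filter fixed their direction as deposited. Klf2, which drives expression of homing receptors in resting T cells, was at 20.2 TPM with MigRI and 274 with Klf4. Klf9 was at 3.304 and 41.04 TPM and Klf3, a repressor, at 4.16 and 29.6 TPM. Klf4 itself ranked below 6 of the other members, and these 3 had the largest differences, at 2.75, 2.34 and 1.62 log2 relative. Klf6 was the most abundant member, at 157 and 616 TPM. Klf13 was the only one called lower, at 25.1 and 20.2 TPM.

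Genes of the early response to stimulation were divided. Of 23 measured AP-1 and early factors, 12 were called higher and 6 lower, with a median of 1.26 log2 relative. Below 5 TPM were 3 of the 23 with MigRI and 1 with Klf4, so the filter fixed their direction as deposited. Egr1 was at 18.5 TPM with MigRI and 373 with Klf4, Ier3 at 76.7 and 1365 TPM, and Jun at 84.5 and 1381 TPM, all above 3 log2 relative. At the other end, Batf3 was at 193 and 23.4 TPM and Nr4a2, an orphan nuclear receptor induced by the T cell receptor, at 40.4 and 19.97 TPM. Nr4a1 and Nr4a3, the other members of that family, were at -0.81 and -1.53 log2 relative, so the 3 receptors lay below the median gene while Egr1 and Jun lay far above it. Fos was at 149 and 1594 TPM.

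Feedback genes of the MAP kinase and NF-kB pathways were mostly near the median, with 7 of 25 called higher and 0 lower and a median of 0.39 log2 relative and -0.05 against genes of the same length. The filter fixed the direction of 2 of the 25 as deposited, since they were below 5 TPM with MigRI. Zfp36, which destabilises cytokine mRNA, was at 65.1 and 1121 TPM. Socs3, an inhibitor of cytokine receptors, was at 5.33 and 70.6 TPM, and its relative Cish, induced by interleukin 2 in T cells, at 14.2 and 18.2 TPM. Nfkbiz, an atypical inhibitor of NF-kB, was at 5.32 and 66.00 TPM, and Nfkbia, the most abundant of the list, at 859 and 2714 TPM. Their relative log2 differences were 2.46 and 0.71.

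Targets of glucocorticoids were higher in part. Of 13 measured, 7 were called higher and 1 lower, with a median of 1.09 log2 relative. With MigRI, 3 of the 13 were below 5 TPM, so the filter fixed their direction as deposited. Sgk1, a kinase that holds FOXO factors in the cytoplasm, was at 13.8 TPM with MigRI and 339 with Klf4, the largest difference of the list at 3.57 log2. Cebpd was at 4.59 and 36.2 TPM. The receptor gene Nr3c1 was the only one called lower, at 7.05 and 6.26 TPM. The metallothioneins Mt1 and Mt2 were the most abundant and close to the median, at 0.06 and 0.18 log2.

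Interferon-stimulated genes were higher with Klf4, with 14 of 23 called higher and 2 lower and a median of 1.52 log2 relative and 1.21 against genes of the same length. With MigRI, 3 of the 23 were below 5 TPM, so the filter fixed their direction as deposited. Irf1, a transcription factor induced by interferon gamma, was at 48.00 TPM with MigRI and 687 with Klf4. Oasl1 and Oasl2, of the oligoadenylate synthetase family, were at 7.55 and 6.86 TPM with MigRI, against 108 and 99.2 with Klf4. Rsad2, which encodes viperin, was at 9.04 and 125 TPM, and the guanylate-binding protein gene Gbp2 at 20.96 and 234 TPM. Some short transcripts of the list were lower or near the median. Ifi27l2a was at 2157 and 343 TPM, Isg20 at -1.51 log2 and Isg15, the ubiquitin-like modifier, at -0.54 log2 relative. Against genes of the same length Isg15 was at 0.97 and Ifi27l2a at -2.10 log2. Cells of many types express these genes, and the summed macrophage markers, 3553 TPM with MigRI and 18583 with Klf4, moved the same way. Their part in this result was not tested.

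A pair of GAAA with 2 bases between them, the core of the interferon response element, stood on either strand in 10 of the 17 promoters of this list that the RefSeq table holds (58.8%), taking 250 bases before and 50 after the start. They were in 3.84% of the promoters of all 5801 compared genes in that table, in 4.41% of those called higher in 3.69% of those called lower on the relative scale and in 3.49% of all promoters of the table. The letters were chosen after the list's values were seen. Windows of 130 bases before the start are shown for 4 genes with a match, 3 of them called higher and 1, Isg15, near the median, with the matches in capitals.
Rsad2, chr12:26456453-26456582, minus strand: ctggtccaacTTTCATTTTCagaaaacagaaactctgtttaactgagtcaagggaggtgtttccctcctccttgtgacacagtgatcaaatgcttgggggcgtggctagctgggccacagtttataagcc
Ifit1, chr19:34640759-34640888, plus strand: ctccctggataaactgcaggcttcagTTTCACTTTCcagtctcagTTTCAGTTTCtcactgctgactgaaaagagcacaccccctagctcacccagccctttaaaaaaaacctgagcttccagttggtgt
Gbp2, chr3:142620533-142620662, plus strand: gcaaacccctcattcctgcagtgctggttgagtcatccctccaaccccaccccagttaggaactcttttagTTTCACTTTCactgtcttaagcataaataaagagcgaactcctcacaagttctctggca
Isg15, chr4:156200819-156200948, minus strand: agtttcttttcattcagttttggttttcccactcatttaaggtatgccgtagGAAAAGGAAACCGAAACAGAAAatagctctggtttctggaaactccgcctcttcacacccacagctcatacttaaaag
Isg15 held 3 overlapping matches, between 78 and 66 bases before its start, and Ifit1 held 2, at 104 and 85 bases. A match describes letters and not a bound site, and a link between matches and differences was not tested.

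Class I presentation genes lay on both sides of the median gene, in shares near those of all genes. Of 16 measured 4 were called higher and 4 lower, and the median was -0.17 log2 relative. With MigRI, 1 of the 16 was below 5 TPM, so the filter fixed its direction as deposited. Tapbp, which encodes tapasin, was at 77.4 TPM with MigRI and 599 with Klf4, and the transporter gene Tap1 at 32.1 and 189.8 TPM. The immunoproteasome gene Psmb9 and its activator Psme2 were called lower, at -1.41 and -1.74 log2 relative and at 1.58 and 1.24 on the receptor scale. H2-Q7, a heavy chain with close copies, was called lower as well, at 344 and 228 TPM. H2-D1, another heavy chain, was at 1773 and 6251 TPM and B2m, the shared light chain, at 4699 and 6689.5 TPM, 0.87 and -0.44 log2 relative.

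Glycolytic genes were higher with Klf4. All 16 measured lay above the median gene, 9 were called higher and 0 lower, and the median was 1.15 log2 relative and 0.82 against genes of the same length. The filter fixed the direction of 1 of the 16 as deposited, since it was below 5 TPM with MigRI. The 3 largest differences were those of Slc16a3, Slc2a1 and Pfkl. Slc16a3, the lactate exporter MCT4, was at 14.3 TPM with MigRI and 369 with Klf4, and Slc2a1, the glucose importer GLUT1, at 13.5 and 187 TPM. Pfkl, the committing kinase, was at 18.3 and 149 TPM. The abundant enzymes Eno1, Ldha and Aldoa were at 0.81, 0.94 and 0.62 log2 relative. Hk2, the inducible hexokinase, had the smallest difference, at 5.18 and 12.4 TPM.

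Hypoxia response genes were called higher in 10 of 19 and lower in 2, with a median of 1.01 log2 relative. Below 5 TPM with MigRI were 4 of the 19, so the filter fixed their direction as deposited. Car9, a carbonic anhydrase known for its response to low oxygen, was at 6.89 and 109 TPM. P4ha2, a collagen prolyl hydroxylase, was at 14.6 and 199 TPM, and Ndrg1 at 7.37 and 80.3 TPM. Hif1a, the factor itself, which is regulated mainly as protein, was at 14.7 and 18.1 TPM, -0.67 log2 relative. Higd1a and Hilpda were called lower, at -1.76 and -1.32 log2.

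Sterol synthesis and uptake genes were higher, with 11 of 19 called higher and 0 lower and a median of 1.44 log2 relative and 1.09 against genes of the same length. The filter fixed the direction of 4 of the 19 as deposited, since they were below 5 TPM with MigRI. Mvd and Mvk, enzymes of the mevalonate pathway, were at 10.9 and 9.69 TPM with MigRI, against 101 and 77.1 with Klf4. Sc5d, near the end of the pathway, was at 6.81 and 54.7 TPM. Fdps was the most abundant at 282 and 1090.3 TPM. The pathway's transcription factor Srebf2 was at 5.03 and 38.8 TPM.

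Amino acid stress genes, the targets of the factor ATF4, were called higher in 11 of 18 and lower in 0, with a median of 1.25 log2 relative and 1.07 against genes of the same length. With MigRI, 5 of the 18, Trib3 among them, were below 5 TPM, so the filter fixed their direction as deposited. Trib3, a pseudokinase induced by this pathway, was at 4.802 TPM with MigRI and 134 with Klf4, 27.8-fold. Asns, asparagine synthetase, was at 21.9 and 238 TPM, and Aars, the alanyl tRNA ligase, at 5.88 and 57.6 TPM. Phgdh, the entry to serine synthesis, was at 84.1 and 379 TPM. The amino acid transporters Slc1a5 and Slc38a2 stayed below the median gene at -0.44 and -0.12 log2.

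The letters TGATGNAA, which ATF4 and C/EBP pairs are known to bind, were in 4 of the 16 promoters of this list in the table (25%), those of Asns, Chac1, Trib3 and Aars, and in 2.29% of the promoters of all compared genes, 2.84% of those called higher, 1.99% of those called lower and 4.06% of all promoters of the table. They too were chosen after the values were seen. The 2 windows below hold a match within 130 bases of the start.
Asns, chr6:7693210-7693339, minus strand: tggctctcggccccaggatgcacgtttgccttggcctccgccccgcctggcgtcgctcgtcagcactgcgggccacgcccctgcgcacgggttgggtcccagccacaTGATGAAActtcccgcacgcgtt
Aars, chr8:111033712-111033841, plus strand: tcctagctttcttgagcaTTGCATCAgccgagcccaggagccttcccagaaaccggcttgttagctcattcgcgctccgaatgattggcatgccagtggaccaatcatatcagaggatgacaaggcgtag
The match lay 23 bases before the start of Asns and 112 bases before that of Aars.

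Lysosome and autophagy genes were called higher in 12 of 21 and lower in 1, with a median of 1.501 log2 relative and 1.24 against genes of the same length. Below 5 TPM with MigRI were 2 of the 21, so the filter fixed their direction as deposited. Grn, which encodes progranulin, was at 25.4 TPM with MigRI and 444 with Klf4. The proteases Ctsl, Ctsd and Ctsz were at 2.93, 1.64 and 1.58 log2 relative. Sqstm1, the autophagy receptor p62, was at 68.6 and 1094 TPM. Map1lc3b, which coats autophagosomes, went the other way, at 222 and 143 TPM. Cathepsins and progranulin are abundant in macrophages, whose markers moved in the same direction. In the group of iron and oxidative stress genes 6 of 17 were called higher and 1 lower, with Hmox1, the heme oxygenase, at 10.6 and 174 TPM and the ferritin genes Fth1 and Ftl1 at 0.20 and -0.56 log2 relative. The filter fixed the direction of 4 of these 17 as deposited, since they were below 5 TPM with MigRI.

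**Figure D4:**
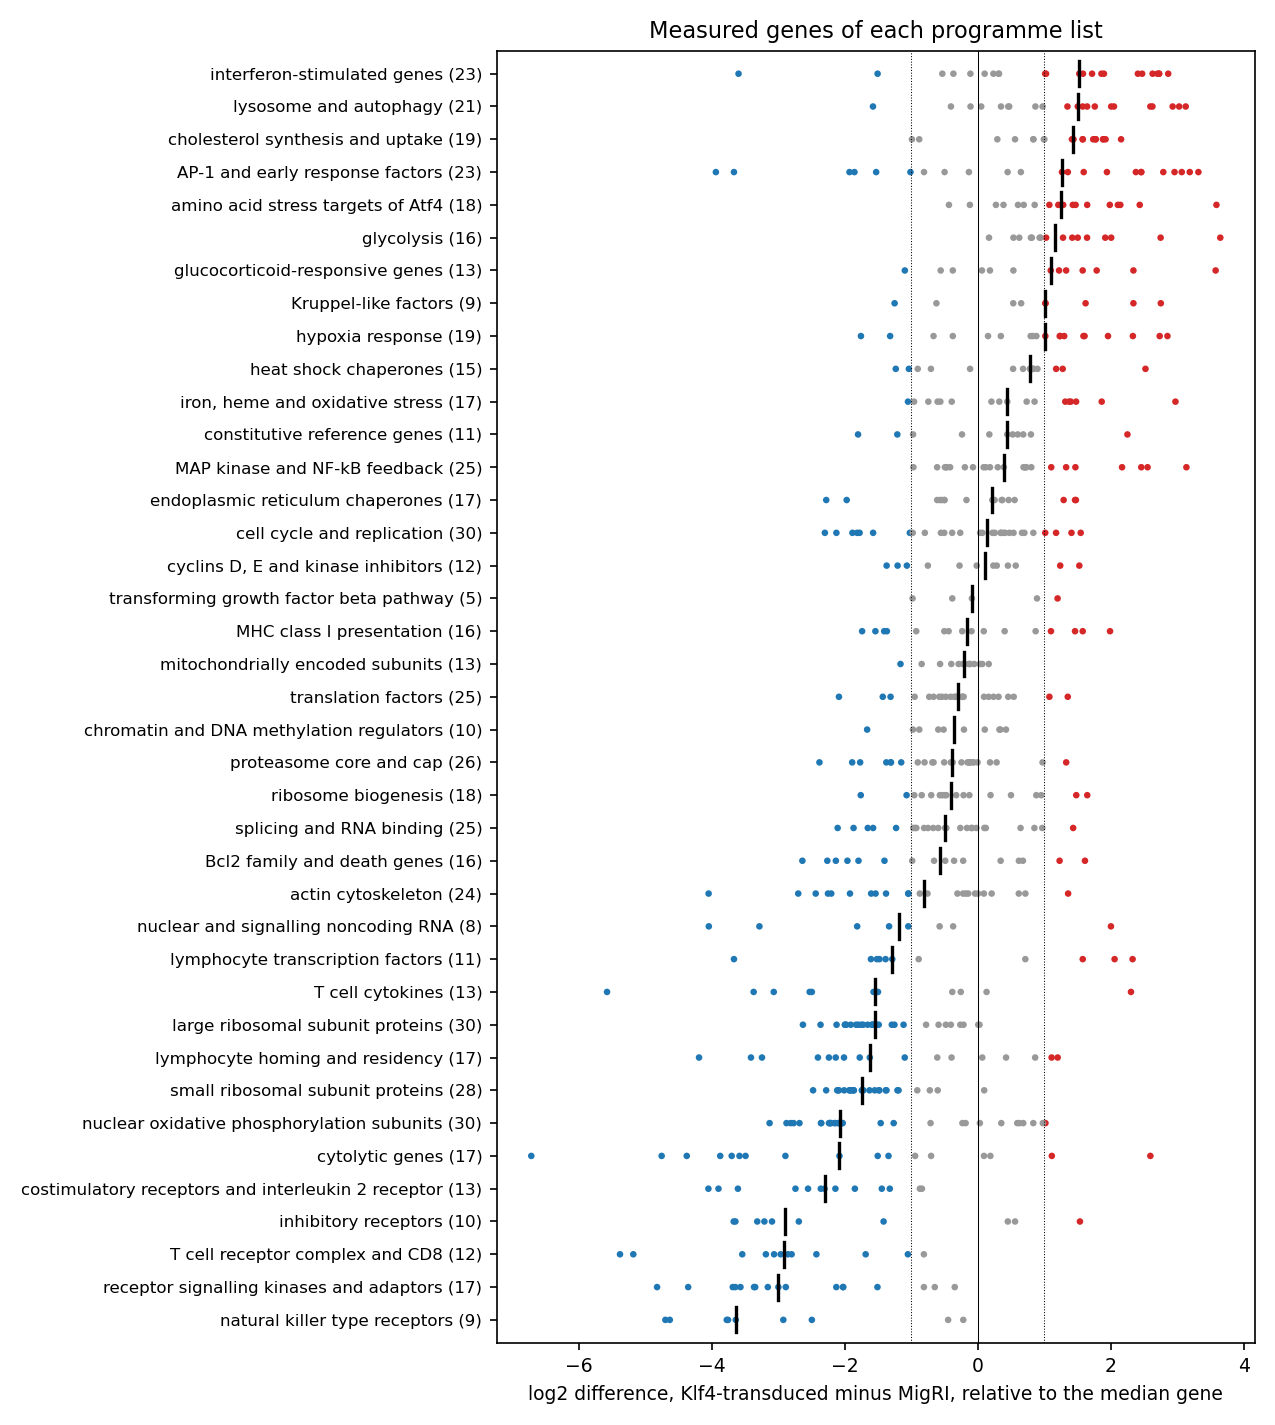
Relative log2 difference (Klf4-transduced minus MigRI, minus the median gene) of every measured gene of each programme list, with the number of measured genes in brackets, 1 point per gene and a black bar at the list median. Red points are at least 2-fold higher, blue at least 2-fold lower and grey neither: medians run from -3.64 for natural killer type receptors to 1.52 for interferon-stimulated genes.

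The difference moved with transcript length. Of the 10 equal groups of genes by longest annotated transcript, the shortest, up to 797 nucleotides, had a median of -1.502 log2 relative, with 68.3% called lower and 3.07% higher. The group from 2493 to 2905 nucleotides had a median of 0.51 log2, with 14.8% lower and 34.1% higher. Level moved with it as well: the most abundant of 8 groups, with means from 192 TPM up, had a median of -1.20 log2 and 54.6% called lower. Processed pseudogenes, of which 602 were compared, had a median of -0.85 log2, and the 6900 protein-coding genes had 0.15 log2. Lengths were found for 7806 genes (96.3%).

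Complexes whose subunits are needed in fixed ratio showed this within themselves. Nuclear genes for oxidative phosphorylation were called lower in 19 of 30 and higher in 1, with a median of -2.07 log2 relative, -0.72 against genes of the same length and 0.92 on the receptor scale. Of the 15 with the shorter coding sequences 14 were called lower, with a median of -2.23 log2. The other 15 had a median of 0.03 log2, with 5 lower. Ndufa1, a small subunit of complex I, was at 709.6 TPM with MigRI and 156 with Klf4, while Atp5a1, the large catalytic chain of the ATP synthase, was at 180.1 and 706 TPM. Across the 30 genes of this list, which share the 2 libraries, the relative log2 difference and the log2 coding length had a Pearson correlation of 0.84. The 13 mitochondrially encoded subunits, whose transcripts come from the organelle, had a median of -0.22 log2 with 1 called lower and 0 higher.

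Proteasome genes repeated the pattern, with a median of -1.15 log2 for the 13 shorter and -0.13 for the 13 longer. Psmb3, a small core subunit, was at 3885 and 1439 TPM, and Psmd2, a large cap subunit, at 34.8 and 172 TPM. Large ribosomal subunit genes were called lower in 22 of 30 and small ones in 24 of 28, with medians of -1.55 and -1.74 log2 relative, 1.43 and 1.25 on the receptor scale and -0.70 and -1.02 against genes of the same length. Rpl35 was the lowest of the large subunit, at 3269.8 and 1019 TPM. Rplp0 and Rpl3, among the longest, were at 0.005 and 0.024 log2. The 15 shorter large subunit genes had a median of -1.80 log2 and the 15 longer -0.78. For the small subunit these were -1.89 and -1.49, and 9 of its 13 longer genes were still called lower. The Pearson correlation with log2 coding length was 0.82 for the proteasome, 0.75 for the large and 0.51 for the small ribosomal subunit. The shares of subunits called lower thus differed with coding length within each complex, to unlike degrees. The part of length in the differences of other groups was not tested beyond the values against genes of the same length.

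**Figure D5:**
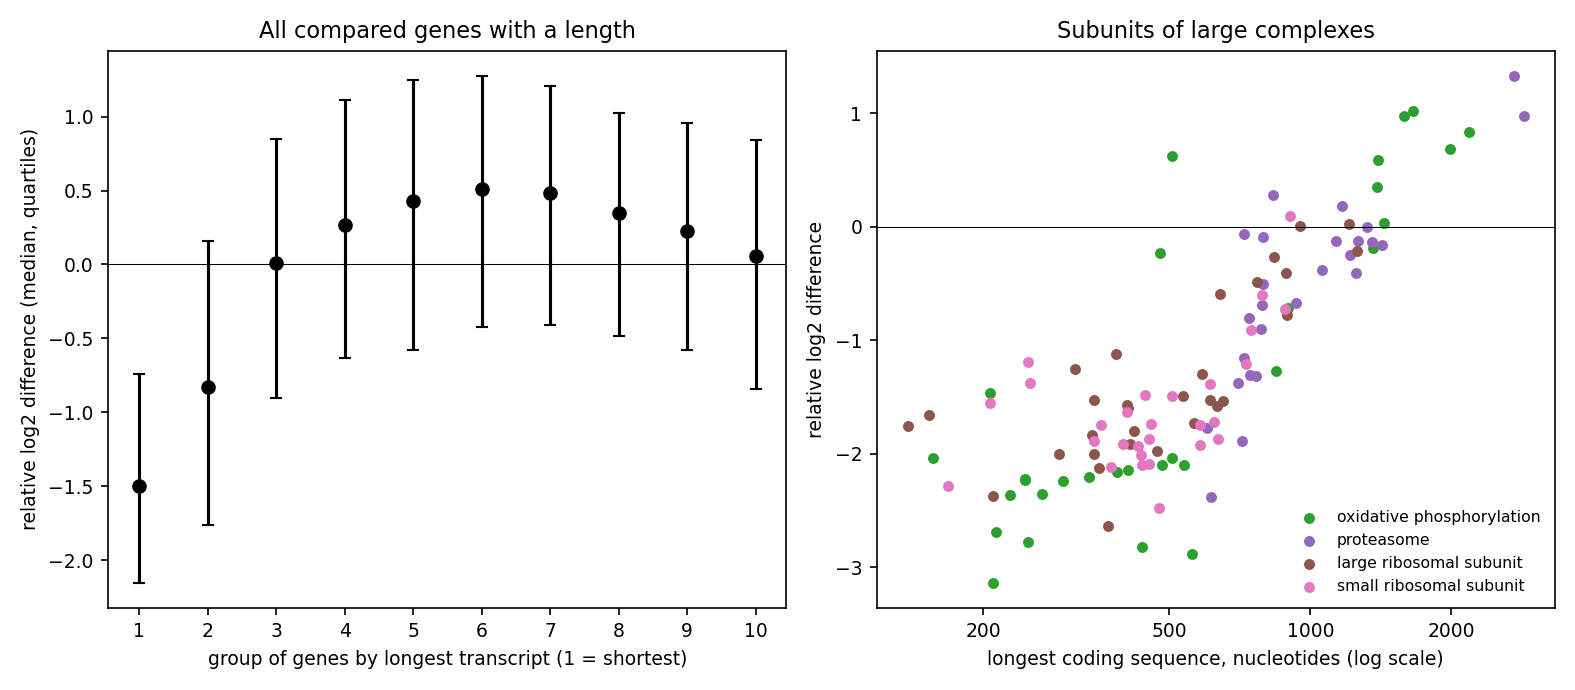
Left, relative log2 difference in 10 equal groups of the compared genes ordered by longest transcript, with points at the median and bars from the 25th to the 75th percentile. Right, relative log2 difference of each subunit gene against its longest coding sequence in nucleotides (log scale): short subunits of oxidative phosphorylation lie near -2 and the longest near 1.

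Proliferation genes were spread around the median gene. Of 30 cell cycle and replication genes 4 were called higher and 7 lower, with a median of 0.14 log2 relative. Tyms, the thymidylate synthase, was at 120.3 TPM with MigRI and 46.6 with Klf4, and Stmn1, a tubulin-binding protein of dividing cells, at 1745 and 771 TPM. Aurka and Plk1, mitotic kinases, were at 1.54 and 1.18 log2. Of 12 genes for cyclins D and E, their kinases and inhibitors 2 were called higher and 3 lower. Ccnd1, a cyclin that stromal and myeloid cells use and T cells largely do not, was at 17.6 and 102 TPM, and Cdkn1a, the inhibitor p21, at 459 and 384 TPM.

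Bcl2 and Bcl2l1, 2 survival genes of the Bcl2 family, exchanged their order. Of 16 measured 6 were called lower (37.5%) and 2 higher (12.5%), against 26.5% and 22.6% of all compared genes. Bcl2 was at 13.8 TPM with MigRI and 4.96 with Klf4, so it passed the filter through MigRI alone, which fixed its direction as deposited. Bcl2a1d, among several close copies of A1, was at 379 and 117 TPM. Mcl1 was at 27.99 and 169.9 TPM and Bcl2l1, which encodes BCL-XL, at 9.02 and 44.4 TPM. In MigRI Bcl2 thus exceeded Bcl2l1, and with Klf4 Bcl2l1 exceeded Bcl2. On the receptor scale both were above 0, at 0.72 and 4.21 log2.

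Actin regulators were called lower in 11 of 24 and higher in 1, with a median of -0.82 log2 relative. Tmsb4x, the actin-sequestering thymosin beta 4, was the highest gene of the MigRI table at 34734 TPM and stood at 4053 TPM with Klf4, -1.06 log2 on the receptor scale. Pfn1, profilin, was at 33224 and 9866 TPM. Actb itself was at 4464 and 8635 TPM, 0.002 log2 from the median gene. Vim, the intermediate filament of mesenchymal and blood cells, was the highest at 198 and 982 TPM.

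Heat shock chaperones had 3 of 15 called higher (20%) and 2 lower (13.3%), with a median of 0.78 log2 relative. Of all compared genes, 22.6% were called higher and 26.5% lower. Bag3, a cochaperone, was the highest heat shock gene at 1.29 and 24.4 TPM. With MigRI, 2 of these 15, Bag3 among them, were below 5 TPM, so the filter fixed their direction as deposited. The next 7 groups had medians from -0.49 to 0.44 log2 relative. Chaperones of the endoplasmic reticulum had 3 of 17 higher and 2 lower, and translation factors 2 of 25 higher and 3 lower. Ribosome biogenesis had 2 of 18 higher and 2 lower, and splicing factors 1 of 25 higher and 5 lower. Below 5 TPM with MigRI were 2 of the 17 reticulum chaperones and 1 of the 25 splicing factors, with the same limit. Chromatin regulators had 0 of 10 higher and 1 lower, which was Ezh2, the histone methylase of Polycomb, at 44.98 and 27.00 TPM. Of 13 genes of the transforming growth factor beta pathway 5 were measured, and 1, Smad4, was called higher. With MigRI, 2 of the 5 were below 5 TPM, so the filter fixed their direction as deposited. Constitutive reference genes had 1 of 11 higher and 2 lower, and Rpl13a was the lowest at -1.80 log2 relative.

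The largest differences of all were ranked among the 4786 eligible genes that reached 20 TPM in either library. Among the 20 highest were Tpsb2, Sco2, Igfbp4, Mmp11, Slc16a3, Capn6, Trib3, Sgk1, Tpsab1, Dpep1, Mfap4, Fkbp10, Trim47, Rhbdf1, Maged1, Il17rc, P3h4, Cav1 and Angptl2, with relative log2 differences from 4.21 to 3.37. Tpsb2, Tpsab1 and Dpep1 were listed at 0 with MigRI, so their differences depend on the pseudocount. Sco2, Mmp11, Capn6, Trib3, Mfap4, Rhbdf1, Il17rc, P3h4 and Angptl2 were also below 5 TPM with MigRI. The filter thus fixed the direction of all of these as deposited. Igfbp4, which binds insulin-like growth factors, was at 23.1 TPM with MigRI and 701 with Klf4, 30.3-fold. Cav1, the main protein of caveolae, was at 7.76 and 176 TPM, and Mmp11, a stromal metalloprotease, at 4.41 and 138 TPM. Sco2, a copper chaperone of cytochrome oxidase, was at 0.352 and 40.6 TPM. Of the 20 genes 5 are in the lists above.

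The 20 lowest were Ccdc38, Gzmf, Tff1, Ly6k, Tnp2, Nrgn, Dapl1, Ltb, Gstp3, Tcrg-C4, Cd3d, Phf11c, Ctla2a, LOC115487216, Cd3g, Igflr1, Gmfg, Sept1, Ptprcap and Gzme, with relative log2 differences from -6.95 to -4.75. Gzmf, Ly6k, Tnp2, Tcrg-C4 and Phf11c were listed at 0 with Klf4, with the same limit. Ccdc38, Tff1, Gstp3, LOC115487216 and Gzme were also below 5 TPM with Klf4, so the filter fixed the direction of all of these as deposited. The receptor constant genes lay at -2.98 log2 relative, so the ranking itself placed all 20 below them, Gzme by the least at -1.77 log2. Ccdc38, on chromosome 10, was at 129 and 1.04 TPM. Nrgn, neurogranin, which binds calmodulin, was at 355 and 9.17 TPM, and Dapl1 at 591 and 21.3 TPM. Gmfg, which remodels branched actin in blood cells, was at 511 and 33.3 TPM, and Ctla2a, a cathepsin inhibitor of activated T cells, at 181 and 8.36 TPM. Of these 20 genes 7 are in the lists above.

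Letters of the Kruppel-like factor box stood before genes at both ends of the ranking. CACCC or GGGTG was in 64.1% of the 1407 promoters of genes called higher, in 58.3% of the 1355 of genes called lower, in 60.7% of all compared genes in the table and in 56.8% of all 27025 promoters of the table. Windows of 130 bases before the start are shown for 2 genes called higher and 2 called lower, chosen among those with a match.
Igfbp4, chr11:99041114-99041243, plus strand: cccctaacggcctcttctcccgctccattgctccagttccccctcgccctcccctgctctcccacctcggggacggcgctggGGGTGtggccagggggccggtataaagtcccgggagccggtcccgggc
Slc16a3, chr11:120948937-120949066, plus strand: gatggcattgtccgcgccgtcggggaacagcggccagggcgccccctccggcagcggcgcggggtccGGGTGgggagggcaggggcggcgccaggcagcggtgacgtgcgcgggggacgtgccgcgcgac
Ltb, chr17:35194377-35194506, plus strand: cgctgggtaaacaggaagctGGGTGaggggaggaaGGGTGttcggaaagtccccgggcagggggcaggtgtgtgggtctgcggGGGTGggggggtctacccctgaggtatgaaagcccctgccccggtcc
Nkg7, chr7:43437008-43437137, plus strand: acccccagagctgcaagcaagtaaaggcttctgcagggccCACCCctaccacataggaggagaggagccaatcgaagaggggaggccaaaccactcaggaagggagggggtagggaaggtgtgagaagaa
Ltb, 25.5-fold lower, held 3 of these letters in the window, at 110, 95 and 47 bases before the start. Nkg7, a granule membrane protein at 10580.2 TPM with MigRI and 982 with Klf4, held 1, as did Igfbp4 and Slc16a3. Of the other letters searched, the AP-1 site TGANTCA was in 7.04% of promoters of genes called higher, 3.99% of those called lower, 5.05% of all compared genes and 7.92% of all promoters of the table. In the same order the E-box CACGTG was in 9.45%, 9.96%, 10.52% and 7.24%, and the STAT site TTCNNNGAA in 7.11%, 7.53%, 7.05% and 8.42%. The glucocorticoid receptor site (AGAACA or GGAACA) was in 23.03%, 27.01%, 23.9% and 31.4%, and the Ets site in 2.84%, 4.58%, 4.62% and 2.69%. The median GC content of the promoters was 60.3% for genes called higher, 58.7% for those called lower and 60.0% for all.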

How the data were processed

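RNA of Pmel-I CD8 T cells was taken up in TRI Reagent and amplified with the SMART-seq v4 kit, per the labels' protocols. Trimmomatic, HISAT2, StringTie and edgeR and the build mm10 are named in the submitters' processing notes, and no version, role or gene annotation is given there. The authors deposited TPM, a level per transcript length scaled to the same total in each library, so abundant transcripts lower every other value. Depth cannot be read from TPM and is unknown here, so counting error cannot be stated. Libraries of this kit are unstranded, and overlapping genes may share reads.

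From these, differences of log2(TPM + 1), which understate the change of low genes, were computed with Python 3.11.15 and pandas 2.3.3 over symbols with a mean of at least 5 TPM, as deposited and minus their median. No test was run, since each group held 1 library. An exact 0 can be a failed estimate and is given as listed at 0, with no fold. Transcript lengths and gene positions came from GENCODE vM21 on mm10, and promoter sequences from RefSeq on GRCm38.p6, matched by symbol. The value against genes of the same length is the difference minus the median of the same of 10 groups of genes by longest transcript. The scripts were tested on simulated data.

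The 52 lists (932 genes in the tables, 725 measured, meaning at or above the filter) and the alternatives were chosen with earlier results of these data known. Symbols of mitochondrial and gamma chain genes were mapped to those of the tables. Named genes were Klf4, the 20 highest and 20 lowest relative differences among genes reaching 20 TPM in either library (without predicted genes, small RNAs, receptor segments, mitochondrial and ribosomal protein genes), and in each list the 3 highest, the 3 lowest and the 3 most abundant, with markers of other cells listed at 0. Trac, Adam9, Cd3e, Cd8a, Cd8b1, Csf1r, Slc25a32, Cd4, Kit, Nr4a1, Nr4a3, Rsad2, Gbp2, Ifit1, Srebf2 and Chac1, and the receptor segments were named outside this rule, after their values were seen. Some genes that the rule names are not reported here. The alternatives were pseudocounts of 0.1 and 5, filters at 1 and 10 TPM or none, quantile normalization, median of ratios scaling, removal of mitochondrial, ribosomal protein and receptor segment genes or of the 50 most abundant before rescaling, coding genes of at least 1000 nucleotides, and differences against genes of the same length or against Trac, Trbc1 and Trbc2.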

Additional observations from a re-analysis of the deposited data

How the results depend on the processing

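TPM keep no depth, so the precision of these values is unknown, and with 1 library per group no replicate could be left out. No paired analysis was possible because each group held 1 library. The median difference, 0.95 log2 in the report, was 0.76 with a pseudocount of 5, 0.43 with no level filter, -0.11 under median of ratios scaling, 0.033 under quantile normalization, 0.84 without the 50 most abundant genes and 1.19 over coding genes of at least 1000 nucleotides. As deposited, genes called higher numbered 6360, 1664 and 1866 with no filter, median of ratios and quantile normalization, and genes called lower 1418, 2277 and 1875, with 427 lower over coding genes of at least 1000 nucleotides. After these scalings 42.2% and 49.9% of the calls were higher. On the relative scale 1173 genes were called higher with a pseudocount of 5 and 4224 with no filter, where 63.3% of the calls were higher. Against Trac, Trbc1 and Trbc2, 7267 genes were called higher and 90 lower, and 98.8% of the calls were higher. On that scale 12 list medians turned from lower to higher: the receptor complex 0.074, cytolytic genes 0.90, inhibitory receptors 0.091, costimulatory receptors 0.68, lymphocyte transcription factors 1.70, cytokines 1.44, homing genes 1.36, nuclear oxidative phosphorylation 0.92, large and small ribosomal subunits 1.43 and 1.25, noncoding RNA 1.79 and B cell genes 1.52 log2. The receptor complex list holds Trbc1 and Trbc2 themselves, so its value there was partly fixed near 0. No list median of at least 1 log2 turned sign under the other alternatives, and 26 of 46 list medians were that large. Of 282 recomputed medians of these lists 26 were over 1.5 times smaller and 4 over 1.5 times larger. Among them, inhibitory receptors were at -1.67 log2 with a filter at 1 TPM and -1.21 with none, receptor signalling genes at -1.78 and natural killer type receptors at -1.97 with none, cytolytic genes at -1.07 and nuclear oxidative phosphorylation at -0.48 over coding genes of at least 1000 nucleotides, and nuclear oxidative phosphorylation and large and small ribosomal subunits at -0.91, -0.47 and -0.67 under quantile normalization. Interferon-stimulated, early response and Kruppel-like genes were at 0.92, 0.83 and 0.51 with a pseudocount of 5, and mast cell markers at 1.66 with it and 6.57 with 0.1. B cell genes were at -0.44 against genes of the same length, and cytokines at -0.89 there and -0.85 under quantile normalization. Of 244 named genes called on the relative scale, 81 of the 130 lower ones turned sign against the receptor, 3 against genes of the same length and 1 under quantile normalization. At most 41 fell below 2-fold under any alternative. The causes were not tested.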

Other observations

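Outside the lists, some genes that modify and assemble collagen had large differences. Fkbp10 and P3h4, which assist the folding and hydroxylation of procollagen, were among the 20 highest, at 7.35 and 2.54 TPM with MigRI, against 187 and 70.7 with Klf4. Plod1 and Plod3, lysyl hydroxylases, were at 2.33 and 3.52 TPM with MigRI, against 53.7 and 59.9 with Klf4. Serpinh1, the collagen chaperone HSP47, was at 28.2 and 406 TPM, and Pcolce, which enhances procollagen cleavage, at 36.9 and 618 TPM. Mmp14, a membrane metalloprotease that activates the Mmp2 product, was at 5.95 and 123 TPM. Plod1, Plod3, Serpinh1, Pcolce and Mmp14 were picked after seeing their values, so they say nothing of the group as a whole. The fibroblast and matrix markers, at 287 TPM with MigRI and 2146 with Klf4 in sum, moved in the same direction, and their part in these values was not tested.

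Some paralogs differed in the size of their difference. Gstp3, a glutathione transferase, was at 68.9 TPM with MigRI and 1.96 with Klf4, while its neighbours Gstp1 and Gstp2 were at 518 and 151 TPM with MigRI, against 859.7 and 279.8 with Klf4. Relative to the median gene the 3 were at -5.51, -0.22 and -0.066 log2. Ctla2a was at 181 and 8.36 TPM and Ctla2b at 33.3 and 8.296 TPM, both lower relative to the median gene. Gstp1, Gstp2 and Ctla2b were picked after seeing their values, and how reads were shared among such copies is not given in the sources used here.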
